A study of Schizosaccharomyces pombe with 12 samples.

Results

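The M mating-type specific genes of the fission yeast Schizosaccharomyces pombe were taken as 8 genes, chosen by symbol: the pheromone genes mfm1, mfm2 and mfm3, the genes mam1, mam2, mam3 and mam4, and sxa2. All 8 were found among the 5160 genes of the deposited tables, and all 8 passed the filter on low counts that left 5024 genes for testing. RNA was sequenced from 12 libraries of whole cells, 3 from each of 3 mutants of histone H2B (A, Q and R) and 3 from the wild type (WT). In each mutant, lysines 5, 10 and 15 of H2B are replaced together, by alanine in A (H2BK5AK10AK15A), by glutamine in Q (H2BK5QK10QK15Q) and by arginine in R (H2BK5RK10RK15R). The genotype label of the second A library gives position 16 in place of 15 (H2BK5AK10AK16A). Neither mating type, other alleles nor growth conditions of the strains are stated in the labels. Nor do the labels say whether replicates were grown separately, and the p-values then measure the spread between these 12 libraries, which may be technical.

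Fission yeast cells mate as P or M cells when nutrients run out. M cells make M-factor, a short peptide that is farnesylated and carboxymethylated at its end, and sense P-factor, the pheromone of P cells, through a receptor coupled to a G protein. The transcription factor Ste11 switches on the mating genes in both cell types, and the M-specific ones also need Mat1-Mc, a factor encoded at the mating-type locus of M cells. Receptor signalling through a MAP kinase cascade then raises the expression of some of these genes further, sxa2 among them. In RNA from whole cultures, more M cells and more RNA of these genes per cell cannot be told apart.

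Library totals were between 15329416 and 20050394 counts, and 3 counts corresponded to between 0.15 and 0.196 CPM (counts scaled to a library total of 1000000). Between 5064 and 5087 genes had a count in each library. Replicates differed by more than counting error: the chi-square per degree of freedom between 2 libraries of a group was 104.6 to 204.3 in A, 93.4 to 156.8 in Q and 28.5 to 168.2 in R, against 15.8 to 28.8 in WT. In R the second library stood apart, at 168.2 and 148.2 from the others, which were at 28.5 from each other.

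The 3 M-factor genes encode the same mature peptide inside different precursors. Their coding sequences (RefSeq, build ASM294v3, introns removed) are shown because the results separate mfm2 from the other two. mfm1 lies at chrI:4917015-4917521 on the plus strand, mfm2 at chrI:2912762-2913250 on the minus strand and mfm3 at chrII:700364-700700 on the plus strand, each with 2 exons. Capitals mark the 9 codons of the mature peptide, and the 3 codons between them and the stop encode residues that are clipped off.
mfm1: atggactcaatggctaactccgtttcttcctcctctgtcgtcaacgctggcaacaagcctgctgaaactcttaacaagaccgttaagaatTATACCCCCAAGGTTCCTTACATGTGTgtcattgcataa
mfm2: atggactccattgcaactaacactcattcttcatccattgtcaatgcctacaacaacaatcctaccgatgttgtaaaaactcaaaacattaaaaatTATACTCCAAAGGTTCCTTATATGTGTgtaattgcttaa
mfm3: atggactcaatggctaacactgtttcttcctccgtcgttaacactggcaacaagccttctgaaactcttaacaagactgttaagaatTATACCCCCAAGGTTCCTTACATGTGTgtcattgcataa
In those 27 bases mfm1 and mfm3 had 0 differences, and mfm2 had 3 differences from each, none of which changes the encoded residues. Over the coding sequence mfm1 and mfm3 were identical at 93% of aligned bases and shared an exact stretch of 48 bases in their transcripts, while mfm2 was identical to mfm1 at 68.1% and to mfm3 at 70.6%, with exact stretches of at most 11 bases. Reads of mfm1 and mfm3 could therefore be split between them by the authors' counting, and the values of both are uncertain in this respect.

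The DNA before the genes was searched because several of them moved together. Nested strings of letters were used, TTCTTTGTT, with which the TR-box bound by Ste11 begins, and CTTTGT, which lies within it. Both strands were searched from 250 bases before to 50 bases after each annotated start. TTCTTTGTT was found for mfm1, mfm3 and mam4, 3 of the 8 genes, and in 2% of the 5112 windows of protein-coding genes. CTTTGT was found for 7 of the 8 genes, all except sxa2, and in 22.1% of all windows. The stretches of 26 bases are given below, each read on the strand of the match, with the match in capitals (the 9 letters where present, otherwise the 6).
mfm1: actgagacTTCTTTGTTggtcggacc
mfm2: actgtgatctCTTTGTtcatttgcct
mfm3: tctgagacTTCTTTGTTggttgggcc
mam1: cacaatgggcCTTTGTtaggtactct
mam2: aataattcctCTTTGTttagaatttc
mam3: actcaacttcCTTTGTttcatcggca
mam4: gtatgattTTCTTTGTTttacttccc
The matches shown lie between 32 bases (mam3) and 163 bases (mfm3) before the start, and the annotated starts of mam2 and mfm3 are the starts of their coding sequences. The 250 bases before mfm2 (chrI:2913251-2913500, minus strand) and before mfm1 (chrI:4916765-4917014, plus strand) are printed on the strand of the gene, because they encode the same peptide at very different levels. Capitals mark every match, so that a match on the other strand reads as its reverse complement.
mfm2: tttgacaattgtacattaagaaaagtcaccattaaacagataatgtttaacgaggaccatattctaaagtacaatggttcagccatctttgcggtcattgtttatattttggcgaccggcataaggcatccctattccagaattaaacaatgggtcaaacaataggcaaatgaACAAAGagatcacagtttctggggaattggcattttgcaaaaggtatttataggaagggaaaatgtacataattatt
mfm1: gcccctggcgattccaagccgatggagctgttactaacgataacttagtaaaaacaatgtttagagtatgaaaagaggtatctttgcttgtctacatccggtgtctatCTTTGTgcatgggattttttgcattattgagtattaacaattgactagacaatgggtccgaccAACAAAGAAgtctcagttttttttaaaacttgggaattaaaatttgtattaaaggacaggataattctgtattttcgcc
A match is a description of the letters only, and no binding was measured. Matches were also found for mam3 and mfm3, which passed the test against WT in no mutant. Only the 6 letters were found for mfm2, mam1 and mam2. Whether a match goes with a change was not tested.

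Against WT, 2 of the 8 genes rose in A and 0 fell, where 2.73% of all genes tested were higher and 1.43% lower. In Q, 3 rose and 1 fell, where 18.6% of all genes were higher and 15.8% lower. In R, 5 rose and 1 fell, where 13.2% of all genes were higher and 11.1% lower. These calls use edgeR's quasi-likelihood test with a Benjamini-Hochberg adjusted p below 0.05 over all genes tested. The median log2 fold change of the 8 genes was 0.13 in A, 0.33 in Q and 1.17 in R, and that of all genes was 0.01 in A, 0.02 in Q and -0.01 in R. The 3 comparisons share the WT libraries. mfm2 and mam1 were higher in each of the mutants, mam2 in Q and R, and mfm1 and mam4 in R, while sxa2 was lower in Q and R. mam3 and mfm3 passed the test in none of these comparisons.

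**Figure D1:**
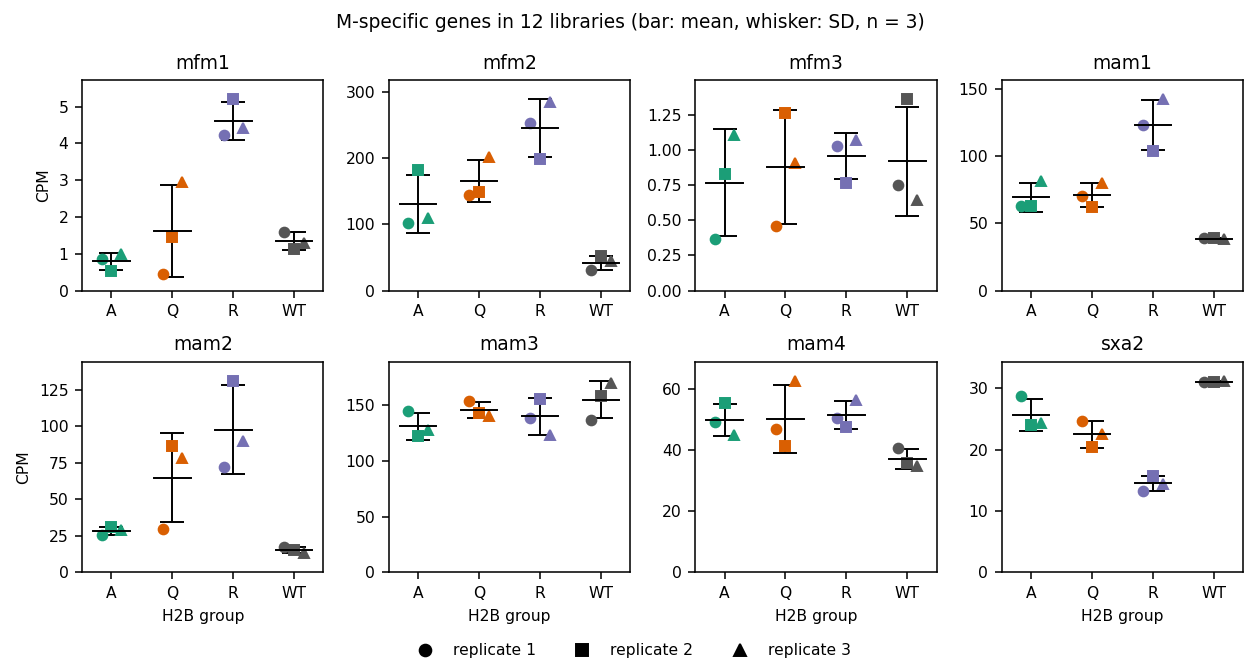
CPM of the 8 genes in the 12 libraries, 1 panel per gene with its own linear axis from 0, groups A, Q, R and WT from left to right; points are libraries, bars their means and whiskers the SD (n = 3). mfm2, mam1 and mam2 were highest on average in R, sxa2 was lowest in R, and the groups of mam3 and mfm3 overlapped.

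Of the pheromone genes, mfm2 rose in all 3 mutants. It had 102, 182 and 110 CPM in A, 145, 149 and 202 CPM in Q and 253, 198 and 284 CPM in R, against 30.4, 51.4 and 44.2 CPM in WT. Every mutant library was above every WT library. The log2 fold change was 1.69 in A (SE 0.26, adjusted p = 0.0174), 1.95 in Q (SE 0.26, adjusted p = 0.00216) and 2.65 in R (SE 0.27, adjusted p = 0.000155). The calls in Q and R held in all 20 alternatives. The call in A was lost without any single WT library, with an adjusted p of 0.0953 without WT library 1, 0.0519 without 2 and 0.0874 without 3, in a range over the alternatives of 1.52e-07 to 0.0953. Leaving out WT library 1, 2 or 3 left 4, 2 and 7 of all genes called in A, in place of 209. The log2 fold change of mfm2 in A stayed between 1.35 and 1.86 over the alternatives.

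mfm1 had few counts in all groups and rose in R. It had 14, 9 and 17 counts in A (0.848, 0.534 and 0.994 CPM), 7, 24 and 49 counts in Q (0.457, 1.45 and 2.96 CPM), and 74, 88 and 74 counts in R (4.23, 5.2 and 4.41 CPM), against 32, 18 and 20 counts in WT (1.6, 1.12 and 1.29 CPM). The R libraries were above all others, and the Q libraries spread from below to above the WT range. The log2 fold change was 1.87 in R (SE 0.47, adjusted p = 0.017), -0.72 in A (SE 0.52, adjusted p = 0.409) and 0.25 in Q (SE 0.48, adjusted p = 0.718). The call in R was lost without the second R library (adjusted p = 0.0502) and without WT library 1 (0.0552), 2 (0.0587) or 3 (0.0658), in a range over the alternatives of 0.00255 to 0.0658.

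mfm3, the third pheromone gene, had between 6 and 22 counts in each library. It averaged 0.768 ± 0.378 CPM in A, 0.876 ± 0.405 CPM in Q and 0.956 ± 0.165 CPM in R, against 0.92 ± 0.388 CPM in WT (SD, n = 3 each). The groups overlapped. The 95% intervals of the log2 fold change, -1.31 to 0.91 in A, -1.17 to 1.03 in Q and -0.93 to 1.25 in R, are wide, and a change within them was not detectable at this depth. The whole gene lies opposite the noncoding RNA gene SPNCRNA.1381 (337 bases of overlap), and the labels do not say whether the counting used strand.

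mfm2 made up nearly all of the M-factor RNA. On the FPKM scale, which is per length, its share of the summed level of the 3 genes was 99%, 99.2% and 98.1% in the A libraries, 99.4%, 98.3% and 98.5% in the Q libraries and 98.5%, 97.9% and 98.6% in the R libraries, against 93.9%, 95.3% and 96.4% in WT. Every mutant library was above every WT library. The FPKM values imply gene lengths of 769 bases for mfm1, 467 for mfm2 and 343 for mfm3, against RefSeq transcripts of 436, 447 and 270 bases, so the gene models used by the authors differ from those shown here.

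Both mam1 and mam4 act on the M-factor precursor or its product. mam1, which encodes the ABC transporter that exports M-factor (chrII:2596405-2600486, minus strand, 1 exon), rose in all 3 mutants. It had 62.8, 63.1 and 81.4 CPM in A, 70.5, 62.1 and 80.1 CPM in Q and 123, 104 and 142 CPM in R, against 39, 38.8 and 38 CPM in WT. The mutant and WT libraries did not overlap, and the R libraries were above those of A and Q. The log2 fold change was 0.88 in A (SE 0.15, adjusted p = 0.0174), 0.85 in Q (SE 0.15, adjusted p = 0.00452) and 1.77 in R (SE 0.16, adjusted p = 4.76e-05). The calls in Q and R held in all 20 alternatives. The call in A was lost without the second A library (adjusted p = 0.058) and without WT library 1 (0.0976), 2 (0.0627) or 3 (0.101), in a range over the alternatives of 4.73e-05 to 0.101. The gene lies opposite the noncoding RNA gene SPNCRNA.5728 over 3323 bases and opposite hbs1 over 48 bases. hbs1 had a log2 fold change of -0.10 in A, -0.68 in Q and -0.61 in R, the other direction from mam1, and no value was available for SPNCRNA.5728.

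mam4 encodes the methyltransferase that carboxymethylates the farnesylated end of M-factor (chrI:1229095-1230272, minus strand, 1 exon). It had 49.1, 55.4 and 45.1 CPM in A, 46.8, 41.2 and 62.6 CPM in Q and 50.6, 47.5 and 56.4 CPM in R, against 40.7, 35.8 and 34.8 CPM in WT. All mutant libraries were above all WT libraries, by a small margin. The log2 fold change was 0.57 in R (SE 0.15, adjusted p = 0.0224), and 0.46 in A (SE 0.15, adjusted p = 0.0951) and 0.40 in Q (SE 0.15, adjusted p = 0.0574) did not pass. In Q it passed with DESeq2 (adjusted p = 0.0464), without Q library 2 (0.0476) and without the second libraries of the mutants (0.0188), in a range over the alternatives of 0.0188 to 0.244. In A it passed with only A and WT in the fit (0.0303), in a range of 0.0303 to 0.28. The call in R was lost without the third R library (adjusted p = 0.0611) and without WT library 1 (0.0529), 2 (0.0727) or 3 (0.0853), in a range over the alternatives of 0.00545 to 0.0853. The gene lies entirely opposite the noncoding RNA gene SPNCRNA.2539 (1178 bases).

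mam2, which encodes the receptor for P-factor (chrI:4780688-4781922, plus strand, 1 exon), rose in Q and R. It had 25.2, 30.8 and 28.8 CPM in A, 29.6, 86.2 and 78.5 CPM in Q and 71.9, 131 and 90.2 CPM in R, against 17.3, 15.3 and 12.9 CPM in WT. No mutant library overlapped with WT, and the first Q library lay within the range of A while the other two lay far above it. The log2 fold change was 2.08 in Q (SE 0.34, adjusted p = 0.00356) and 2.77 in R (SE 0.35, adjusted p = 0.000657), and both calls held in all 20 alternatives. In A it was 0.93 (SE 0.34, adjusted p = 0.119), which passed with DESeq2 (adjusted p = 0.0499), with only A and WT in the fit (0.00909) and without the first Q library (0.0293), in a range over the alternatives of 0.00909 to 0.321.

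mam3 encodes the cell-surface agglutinin of M cells (chrI:1856833-1860689, minus strand, 1 exon). It averaged 131 ± 11.8 CPM in A, 146 ± 7.1 CPM in Q and 140 ± 16.4 CPM in R, against 155 ± 16.8 CPM in WT (SD, n = 3 each). The groups overlapped. The 95% intervals of the log2 fold change ran from -0.45 to 0.04 in A, from -0.36 to 0.13 in Q and from -0.31 to 0.18 in R, which are narrow beside the changes of mfm2, mam1 and mam2. mam3 lies opposite SPAP11E10.01 over 72 bases, and that gene had a log2 fold change of -0.29 in A, 0.04 in Q and -0.83 in R.

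sxa2 encodes the secreted carboxypeptidase with which M cells inactivate P-factor (chrI:712217-714449, minus strand, 1 exon), and it fell in Q and R. It had 28.7, 24 and 24.4 CPM in A, 24.7, 20.4 and 22.6 CPM in Q and 13.3, 15.7 and 14.4 CPM in R, against 31.1, 31 and 31.2 CPM in WT. All mutant libraries were below all WT libraries, and the R libraries were the lowest. The log2 fold change was -0.49 in Q (SE 0.12, adjusted p = 0.0127) and -1.01 in R (SE 0.13, adjusted p = 0.000643), and in A it was -0.24 (SE 0.12, adjusted p = 0.247). The call in R held in all 20 alternatives. The call in Q was lost without the third WT library (adjusted p = 0.0516), in a range over the alternatives of 0.000596 to 0.0516. sxa2 shares 138 bases with cox4 on the opposite strand, 1427 bases with the opposite noncoding RNA gene SPNCRNA.2305 and 363 bases with SPNCRNA.2306 on its own strand. cox4 averaged 149 CPM in WT and had a log2 fold change of -0.26 in A, 0.13 in Q and 0.22 in R.

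**Figure D2:**
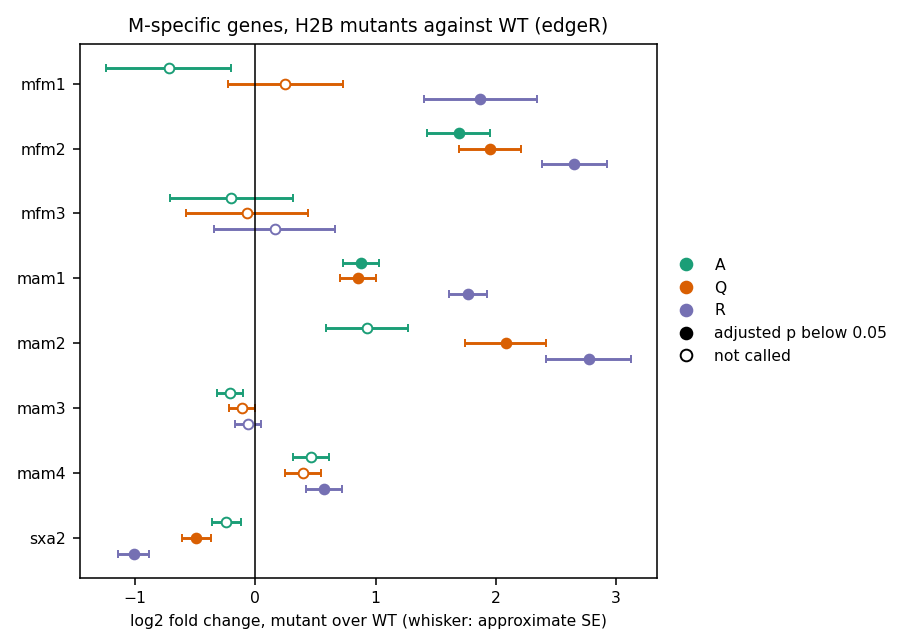
Log2 fold change of the 8 genes in A, Q and R, each against WT, from edgeR; points are fitted values, filled where the adjusted p is below 0.05 and open otherwise, and whiskers are 1 approximate SE either way. mfm2 and mam1 are filled above 0 in all 3 mutants, sxa2 is filled below 0 in Q and R, and mam3 and mfm3 are open in each.

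The direct comparison of the mutants placed R apart from A for 4 of the 8 genes. In R against A, 3 rose and 1 fell, where 0.876% of all genes were higher and 1.59% lower. mfm1 was higher by a log2 fold change of 2.59 (SE 0.49, adjusted p = 0.0171), mam1 by 0.89 (SE 0.15, adjusted p = 0.00826) and mam2 by 1.83 (SE 0.34, adjusted p = 0.0146), and sxa2 was lower at -0.77 (SE 0.13, adjusted p = 0.00661). mfm2 was at 0.96 (SE 0.26, adjusted p = 0.0664) and passed with the replicate number as a block (1.00, adjusted p = 0.0326), where 364 genes were called in all, in place of 124. It also passed with DESeq2 (0.00761), without A library 2 (0.0204) and without the second libraries of the mutants (0.00986). The sxa2 call held in all 20 alternatives. The count fell to 1 without the first A library and to 2 without the third A library: mfm1 was lost without either (adjusted p = 0.0788 and 0.0501) and without the third R library (0.0539), mam2 without either A library (0.0788 and 0.0549), and mam1 without the first (0.0511). With the second libraries of the mutants left out together, mfm1 also missed the threshold (0.0516), and mam1 did so with only R and A in the fit (0.0514). Over the alternatives the adjusted p ran from 0.000101 to 0.0788 for mfm1, from 1.17e-05 to 0.0514 for mam1, from 3.58e-06 to 0.0788 for mam2 and from 0.00761 to 0.22 for mfm2.

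In Q against R, 1 gene was higher and 1 lower, where 2.07% of all genes were higher and 1.57% lower. mam1 was lower in Q, at a log2 fold change of -0.92 (SE 0.15, adjusted p = 0.00801), a call that was lost only with Q and R alone in the fit (adjusted p = 0.051, of a range from 5.4e-06). sxa2 was higher in Q at 0.52 (SE 0.13, adjusted p = 0.0387). With the replicate block it missed the threshold (adjusted p = 0.0551), as it did in 11 of the 20 alternatives, among them the omission of library 1 or 3 of A, Q or R and of any WT library, in a range of 0.00218 to 0.308. With the block 207 genes were called in all, in place of 183. mfm1 (-1.62, 95% interval -2.62 to -0.62, adjusted p = 0.0839), mfm2 (-0.69, interval -1.25 to -0.14, adjusted p = 0.168) and mam2 (-0.69, interval -1.40 to 0.02, adjusted p = 0.263) did not pass. mfm1 passed with DESeq2 (adjusted p = 0.0265), with limma on log2(FPKM + 1) (0.0418) and without Q library 3 (0.026), in a range over the alternatives of 0.026 to 0.251. mfm2 passed without the second libraries of the mutants (0.0342), in a range of 0.0342 to 0.416.

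In Q against A, edgeR called 0 of the 8 genes, where 0% of all genes were higher and 0.0398% lower. 1 gene had an unadjusted p below 0.05, mam2, with a log2 fold change of 1.14 (95% interval 0.42 to 1.86, adjusted p = 0.197). DESeq2 called 1, again mam2 (adjusted p = 0.0318), and limma called 0. Without the first Q library edgeR called mam2 (1.49, adjusted p = 0.0112), in a range over the alternatives of 0.0112 to 0.534. The intervals of mam1 (-0.36 to 0.30), mam3 (-0.15 to 0.34) and mam4 (-0.39 to 0.27) are narrow, and those of mfm1 (-0.15 to 2.08) and mfm3 (-0.99 to 1.25) are wide.

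Compared per length, in FPKM, mfm2 was the most abundant of the 8 in every library, at a mean of 281 FPKM in A, 354 in Q and 524 in R, against 89.9 in WT. In WT the order below it was mam3 (39.8 FPKM), mam4 (29.3), sxa2 (16.8), mam2 (8.94), mam1 (8.67), mfm3 (2.68) and mfm1 (1.74), where mam2 and mam1, and mfm3 and mfm1, overlapped between libraries and the other neighbours did not. In R, mam2 (57.5 FPKM), mam4 (40.6), mam3 (35.8) and mam1 (27.7) followed mfm2 with each overlapping the next, and then came sxa2 (7.8), mfm1 (6) and mfm3 (2.79), with no overlap between neighbours. In A the order was mam4 (39.4 FPKM), mam3 (33.7), mam2 (16.6), mam1 (15.5), sxa2 (13.9), mfm3 (2.24) and mfm1 (1.03), and in Q it was mam4 (39.6), mam2 (38.1), mam3 (37.4), mam1 (15.9), sxa2 (12.2), mfm3 (2.55) and mfm1 (2.11). The order of mam2 and sxa2 in WT depends on the gene length used, since FPKM implies 1699 bases for mam2 and 1854 for sxa2, against RefSeq transcripts of 1235 and 2233 bases. With the RefSeq lengths, mam2 had 14, 12.4 and 10.5 CPM per kilobase in WT and sxa2 had 13.9, 13.9 and 14, which overlap. In every mutant library mam2 was above sxa2 on that scale, at 20.4 to 24.9 against 10.8 to 12.8 in A, 23.9 to 69.8 against 9.11 to 11 in Q and 58.2 to 106 against 5.94 to 7.03 in R.

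RNA of P-cell genes was present in every library beside that of the M genes. The summed level of map1, map2, map3 and map4 had a range of 222 to 235 CPM in A, 171 to 278 in Q and 202 to 218 in R, against 269 to 304 in WT, while that of the 8 M genes was 414 to 479 CPM in A, 472 to 590 in Q and 656 to 715 in R, against 298 to 333 in WT. sxa1, also listed as a P-cell gene, was left out of the P-cell sum and was above it in every group. It averaged 1204 CPM in A, 1663 in Q and 1601 in R, against 1048 in WT, so the lower sum in A and R depends on leaving it out. None of these P-cell genes was at 0, and whether a shift between M and P cells contributes to the results was not tested. map2, the gene for P-factor, had 31.1, 18.5 and 45.4 CPM in A, 18.7, 16.5 and 44 CPM in Q and 35.6, 11.5 and 43.2 CPM in R, against 123, 78.7 and 102 CPM in WT. map3, the gene for the M-factor receptor, had 30.4, 19.4 and 32.9 CPM in A, 20.2, 18.8 and 28 CPM in Q and 27.8, 8.21 and 28 CPM in R, against 56.8, 48.6 and 55 CPM in WT. Both were below WT in every mutant library, and lowest in the second library of each group, WT included.

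map2 fell in Q (log2 fold change -1.98, adjusted p = 0.012) and R (-1.64, adjusted p = 0.0316), and was at -1.64 in A (adjusted p = 0.0728). In A map2 passed with DESeq2 (0.0374), with A and WT alone in the fit (0.0123), with the replicate block (0.00885), without R library 2 (0.0184) and without the second libraries of the mutants (0.0348), in a range over the alternatives of 0.00885 to 0.212. map3 fell in Q (-1.29, adjusted p = 0.0215) and R (-1.21, adjusted p = 0.0362), and was at -0.92 in A (adjusted p = 0.153). In A map3 passed with A and WT alone in the fit (0.0149), without R library 2 (0.0125) and without the second libraries of the mutants (0.0176), in a range of 0.0125 to 0.367. In R the map2 call was lost without the second R library (adjusted p = 0.0813) and without WT library 1 (0.101), 2 (0.0505) or 3 (0.0814). The map3 call in R was lost with R and WT alone in the fit (0.0701) and without WT library 1 (0.101), 2 (0.0647) or 3 (0.0967), and in Q without Q library 1 (0.0542) or 2 (0.0709) or WT library 1 (0.062) or 3 (0.0626). The other P-cell genes moved differently. map1, which encodes a transcription factor that works with the P-specific mating-type product, rose in A (1.42, adjusted p = 0.0197), Q (2.01, adjusted p = 0.00203) and R (1.65, adjusted p = 0.00256), although the call in A was lost without the second A library (0.0607) and without any WT library. sxa1, which encodes an aspartyl protease, rose in Q (0.65, adjusted p = 0.011) and R (0.70, adjusted p = 0.0119; 0.0514 without WT library 1 and 0.0511 without 3), and map4, the agglutinin gene of P cells, was at 0.05 in A, -0.08 in Q and -0.09 in R with no call.

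The pheromone and receptor genes of the cell types were also set against each other within libraries. mfm2 over map2, both in FPKM, was 26.2, 78.4 and 19.3 in the A libraries, 61.9, 72.4 and 36.5 in the Q libraries and 56.7, 137 and 52.5 in the R libraries, against 1.97, 5.21 and 3.44 in WT. mam2 over map3 was 1.41, 2.7 and 1.49 in the A libraries, 2.48, 7.78 and 4.76 in the Q libraries and 4.39, 27.1 and 5.47 in the R libraries, against 0.519, 0.536 and 0.399 in WT. Every mutant library was above every WT library for both ratios, which restate the changes of the single genes and were not tested. The second library of each group, WT included, was the highest of its group in both.

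**Figure D3:**
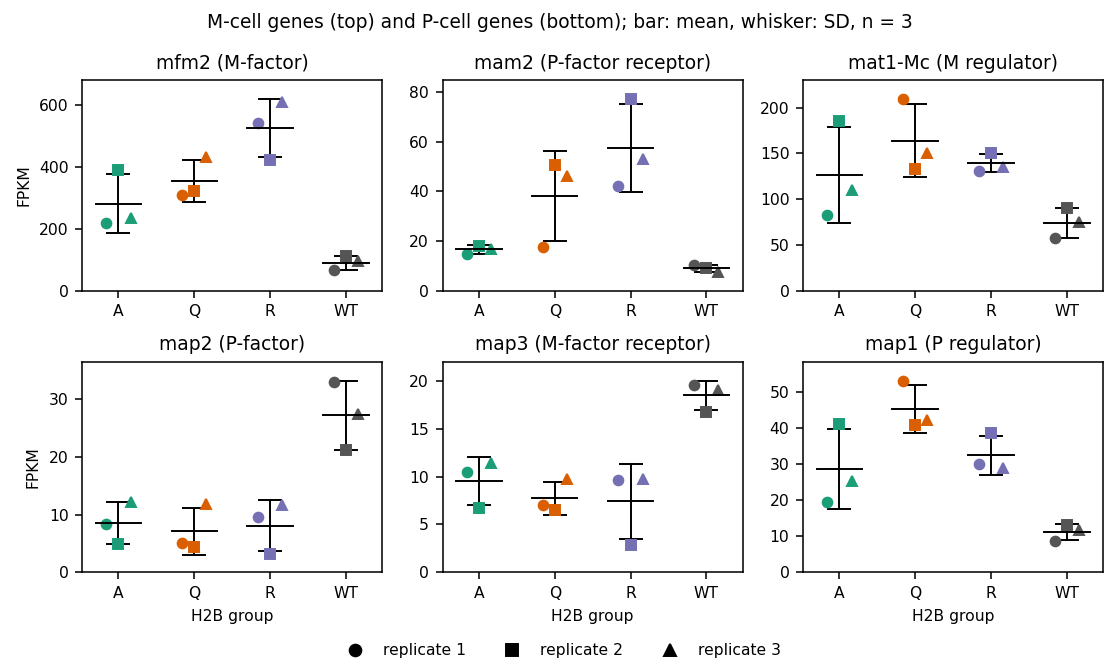
FPKM of 3 M-cell genes (top row) and 3 P-cell genes (bottom row) in the 12 libraries, 1 panel per gene with its own linear axis from 0, groups A, Q, R and WT from left to right; points are libraries, marked by replicate, bars their means and whiskers the SD (n = 3). mfm2 and mam2 lie higher in the mutant libraries than in WT, map2 and map3 lie lower, and map1 lies higher.

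mat1-Mc, the M-specific transcription factor gene, had 48, 107 and 63.6 CPM in A, 121, 77.2 and 86.8 CPM in Q and 76.1, 86.9 and 78.2 CPM in R, against 33.2, 52.1 and 43.1 CPM in WT. It rose in Q (log2 fold change 1.13, adjusted p = 0.0107) and R (1.00, adjusted p = 0.0229), and was at 0.82 in A (adjusted p = 0.0975; 0.0388 with DESeq2, in a range over the alternatives of 0.0388 to 0.337). The call in R was lost without the second R library (adjusted p = 0.0645) and without WT library 1 (0.0944) or 3 (0.0714). mat1-Mi and mat3-Mc were listed with 0 counts in all 12 libraries. The Mc genes of the expressed and the silent cassette are near-identical, so the count given to mat1-Mc may include either. Of 16 cassette gene names looked up, only 3 were found among the deposited genes, all of the M type. No P cassette gene therefore has a value here, and M and P cassette expression could not be compared.

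The genes upstream and downstream of the pheromones were taken as fixed lists. Of 15 pheromone signalling genes, 3 rose and 0 fell in A, 7 rose and 1 fell in Q, and 8 rose and 0 fell in R. Of all genes, A had 2.73% higher and 1.43% lower, Q had 18.6% higher and 15.8% lower, and R had 13.2% higher and 11.1% lower. Their median log2 fold change was 0.29 in A, 0.17 in Q and 0.77 in R, beside 0.01, 0.02 and -0.01 for all genes. The 4 with the lowest p in R were ste4 (an adaptor of the MAP kinase cascade), gpa1 (the G protein alpha subunit coupled to the receptors), ras1 (a small GTPase) and spk1 (the MAP kinase). ste4 was at 1.84 in A, 2.28 in Q and 2.03 in R, gpa1 at 0.84, 1.35 and 1.32 and ras1 at 0.91, 1.29 and 1.19 in the same order, all past the test. The ste4 call in A held in all 20 alternatives. That of gpa1 in A was lost without A library 2 (adjusted p = 0.0817) or 3 (0.0595) and without WT library 1 (0.114), 2 (0.0627) or 3 (0.109). That of ras1 in A was lost without A library 2 (0.0667) and without WT library 1 (0.107), 2 (0.0627) or 3 (0.109). spk1 was at 2.17 in Q (adjusted p = 0.00584) and 2.95 in R (adjusted p = 0.00222), and at 1.38 in A (adjusted p = 0.0834), where it passed with DESeq2 (0.0138), without A library 1 (0.0343) and without R library 2 (0.0386), in a range over the alternatives of 0.0138 to 0.267. The count in A was 1 without the second A library or any WT library and 5 without the second R library, that in Q was 5 without the second Q or the third WT library, and that in R was 5 without any WT library and with limma on FPKM. Over all genes, A had 14 calls without the second A library, in place of 209. It had 4, 2 and 7 without WT library 1, 2 and 3, and 628 without the second R library. Q had 1067 without the second Q library and 841 without the third WT library, in place of 1731. R had 325, 630 and 347 without WT library 1, 2 and 3 and 1261 with limma on log2(FPKM + 1), in place of 1218.

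Of 21 regulators of sexual differentiation, 2 rose in A, 3 rose and 5 fell in Q, and 2 rose and 1 fell in R. Of all genes 2.73% were higher in A, 18.6% higher and 15.8% lower in Q, and 13.2% higher and 11.1% lower in R, so the counts in Q and R are not a result about the list as a whole. ste11 itself had 79.7, 83.1 and 120 CPM in A, 76.8, 216 and 183 CPM in Q and 183, 243 and 258 CPM in R, against 23.5, 34.1 and 29.2 CPM in WT. All mutant libraries were above WT, and the log2 fold change was 1.75 in A (adjusted p = 0.0197), 2.44 in Q (adjusted p = 0.00222) and 3.07 in R (adjusted p = 0.000355). mei2, an RNA-binding protein gene needed for meiosis, rose in A (2.37), Q (3.82) and R (3.39). fkh2, a forkhead transcription factor gene, fell in R (-0.43, adjusted p = 0.0313), and moc3, the regulator with the next lowest p in R, was at -0.32 there (adjusted p = 0.0714; between 0.0422 and 0.213 over the alternatives, past the threshold with limma at either pseudocount). The ste11 and mei2 calls in A were each lost without the second A library (adjusted p = 0.0607 and 0.0761) and without any WT library, and that of ste11 also without A library 3 (0.0582). The count in A was 0 without A library 2 or any WT library, 1 without A library 3 and 4 without R library 2. Over all genes, A had 14 calls without A library 2 and 4, 2 and 7 without WT library 1, 2 and 3. It had 67 without A library 3 and 628 without R library 2, in place of 209. The count in Q was 5 without library 1 of A, Q or R or WT library 1 or 2, and 3 without WT library 3. Over all genes, Q had 1616, 1681 and 1668 calls without library 1 of A, Q and R. It had 968, 1083 and 841 without WT library 1, 2 and 3, in place of 1731. The fkh2 call was lost without R library 2 (0.102) or 3 (0.0589) and without any WT library.

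Of 9 genes of cell fusion and agglutination, 1 rose in A, 2 rose in Q, and 3 rose and 1 fell in R. Over all genes 2.73% were higher in A, 18.6% in Q and 13.2% in R, and 11.1% were lower in R, so the count in Q and the fall in R are near the background. rga3, which encodes a GTPase activator of Cdc42, rose in A (1.44, adjusted p = 0.0174), Q (0.86, adjusted p = 0.0173) and R (1.66, adjusted p = 0.00153). In R, dni2, a membrane protein gene of cell fusion, rose by 1.79 (adjusted p = 0.0177), krp1, a gene for a processing endopeptidase, rose by 0.91 (adjusted p = 0.0189) and prm1, a plasma membrane fusion gene, fell (-0.46, adjusted p = 0.0294). The counts were 0 in A without any WT library, 1 in Q without Q library 2 or WT library 1 and 0 without WT library 2 or 3, and 1 in R without R library 2 or WT library 1 or 3 and 2 without WT library 2. The calls over all genes fell in these settings too, to 502 in R without R library 2 and otherwise as given above. The dni2, krp1 and prm1 calls in R were each lost without R library 2 and without WT library 1 or 3. 5 genes of CaaX maturation, the farnesylation and clipping steps that M-factor shares with other proteins, were tested. SPAC3H1.05, which encodes a CaaX protease, rose in Q (0.47, adjusted p = 0.0315; between 0.0811 and 0.115 without the second Q or any WT library). The farnesyltransferase genes cpp1 and cwp1, cwg2, the gene for an enzyme of geranylgeranylation, and SPAC1687.02 passed in none of the 3 comparisons in the main fit. SPAC1687.02 passed in A without R library 2 (-0.51, adjusted p = 0.0363), in a range over the alternatives of 0.0122 to 0.456. cwp1 passed in A with A and WT alone in the fit (-0.35, adjusted p = 0.0333). In Q cwp1 passed without the second libraries of the mutants (-0.36, adjusted p = 0.0422). SPAC3H1.05 was at 0.40 in R (adjusted p = 0.0678), and passed there without A library 2 (0.0371), in a range of 0.022 to 0.262. In A and in R edgeR, DESeq2 and limma each called 0 of the 5, and 1 had an unadjusted p below 0.05 in each. With 2.73% of all genes higher and 1.43% lower in A, and 13.2% higher and 11.1% lower in R, 0 of 5 is not a result about these genes. The 1 of 5 that rose in Q is near the 18.6% of all genes that were higher there. The share of all genes with an unadjusted p below 0.05 is not given here.

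Across the 12 libraries the members did not form 1 pattern. Pearson's r was computed on log2 CPM as a description, over libraries that share depth and group differences. Between members it was 0.91 for mfm2 and mam1, 0.85 for mfm2 and mam2 and 0.83 for mam1 and mam2. sxa2 ran the other way, at -0.93 with mam1 and -0.92 with mam2. The near-identical pair mfm1 and mfm3 had 0.41, and mam3 had between -0.66 (mam4) and 0.13 (mfm1) with the others. Against the median profile of the 8 genes, r was 0.94 for mam1, 0.84 for mam2, 0.83 for mfm2, 0.79 for mam4, 0.76 for mfm1, 0.29 for mfm3, -0.24 for mam3 and -0.95 for sxa2. Each member's own values are part of that profile. Its r is therefore not independent of it, and is not comparable with the r of genes outside the 8.

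**Figure D4:**
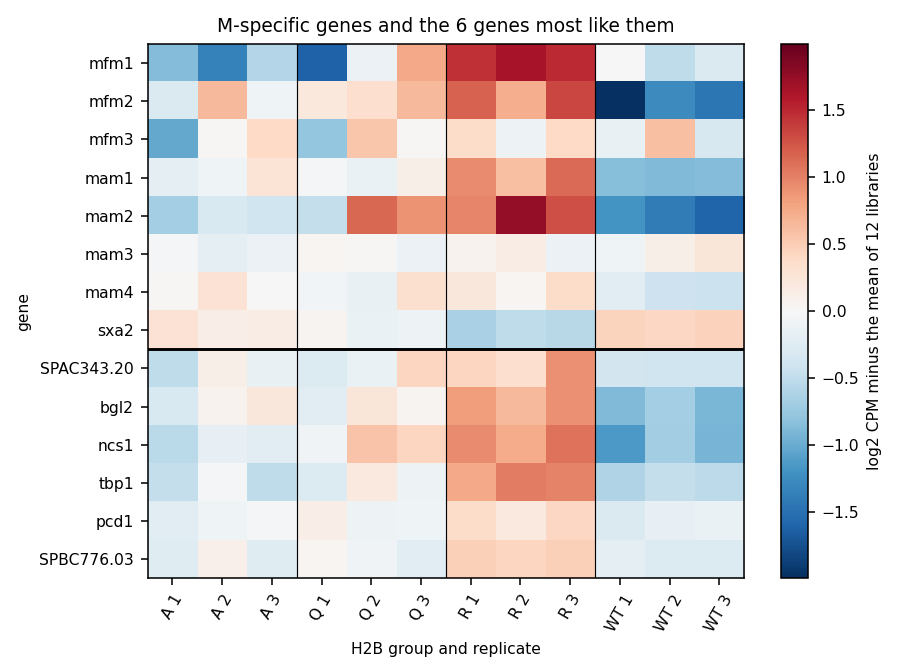
Colour map of log2 CPM minus the mean of the 12 libraries, for the 8 genes (rows above the line) and the 6 genes most like their median profile (below it); columns are libraries of A, Q, R and WT from left to right, red above and blue below the mean of the gene. mfm1, mfm2, mam1 and mam2 are red in all R libraries, sxa2 is blue there, and mam3 is pale throughout.

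The 6 genes outside the group with the highest r to that median profile over the 12 libraries were SPAC343.20, annotated as dubious (0.931), bgl2, a predicted glucan beta-glucosidase (0.903), ncs1, a neuronal calcium sensor related protein (0.894), tbp1, the TATA-binding protein (0.889), pcd1, a predicted coenzyme A diphosphatase (0.885), and SPBC776.03, a predicted homoserine dehydrogenase (0.869). bgl2 had 448, 545 and 606 CPM in A, 484, 625 and 593 CPM in Q and 890, 832 and 950 CPM in R, against 294, 345 and 287 CPM in WT. tbp1 had 197, 253 and 181 CPM in A, 227, 296 and 264 CPM in Q and 413, 531 and 494 CPM in R, against 176, 195 and 185 CPM in WT. Both were highest in the 3 R libraries, without overlap with the other groups. These genes were picked for their likeness, so their own fold changes are not a test of it.

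In the authors' deposited table of all genes, mfm2 had a log2 ratio of 1.64 in A (FDR 1.15e-08), 1.98 in Q (FDR 3.17e-17) and 2.54 in R (FDR 2.25e-26). Among the genes listed as changed in the authors' deposited tables were 1 of the 8 for A (mfm2), 2 for Q (mfm2 and mam2) and 5 for R (mfm1, mfm2, mam1, mam2 and sxa2). Of the 5160 genes, these lists held 148 for A, 428 for Q and 343 for R. In the authors' deposited table, sxa2 was at -1.10 in R (FDR 1.15e-12) and mam1 at 0.84 in A (FDR 6.37e-07), 0.88 in Q (FDR 4.94e-09) and 1.68 in R (FDR 3.8e-24). The FDR values of the authors' deposited table were smaller than the adjusted p-values of the edgeR test for these genes. Despite such FDR values, mam1 was not listed for A or Q, nor was mam2 for A (0.90, FDR 4.65e-06). Every listed member had a larger log2 ratio in absolute size than these, so the lists were not set by FDR alone. The edgeR calls use no cut on fold change, and the counts of the lists are not directly comparable with them.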

How the data were processed

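RNA was measured in 12 libraries, grouped by title and genotype label. Per the labels' protocols, RNA was extracted with Trizol, mRNA was selected with oligo(dT) and cDNA was amplified by PCR. Of tools, the submitters' processing notes list HISAT2, Bowtie2, fastp, RSEM, StringTie and DESeq2 with neither role nor version; build, annotation and strand setting are not given in the sources. The authors deposited a count (whole numbers, not normalized) and an FPKM (scaled for gene length and library total) per gene and library, and a log2 ratio and a p-value and FDR per comparison, taken from the deposited tables as they stand. The 24 loci named as by StringTie were kept among the 5160 genes.

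The count test was edgeR 4.0.16 under R 4.3.3: filterByExpr kept 5024 genes and left out 136, scaling was TMM, and 1 quasi-likelihood model of group alone was fitted to the 12 libraries. The 6 contrasts were two-sided, with a call at an adjusted p (Benjamini-Hochberg, all genes tested) below 0.05. Approximate SEs were computed from each fold change and its F statistic, and 95% intervals use the t distribution. CPM is the count scaled to a library total of 1000000. Alternatives, 20 in all, were DESeq2 1.42.0, limma 3.58.1 on log2(FPKM + 1) and log2(FPKM + 0.1), other size factors, no filter, the compared groups alone, a replicate block, each library left out, and the second libraries of the mutants left out together. With limma on FPKM the share of higher calls was 50.5% in A against 65.6% in the edgeR fit, 34.1% in R against 54.4% and 77% in Q against R against 56.8%, and the median of all genes was -0.10 in R and 0.13 in Q against R. The fit was also run on simulated counts drawn with the same spread in every group. Replicates of A and Q differed more than those of WT, which that run does not cover.

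Samples with equal replicate numbers were checked for pairing by the correlation of their deviations from the group means: 0.32, 0.40 and 0.29 for Q and R and 0.18, 0.32 and 0.19 for R and A, each over 0.1. It was 0.12, 0.28 and 0.05 for A and WT, -0.08, 0.08 and -0.03 for Q and WT, -0.06, 0.18 and -0.07 for R and WT and -0.18, 0.20 and 0.13 for Q and A. Q against R and R against A are therefore called paired in this text, from the data and not from the labels. The main fit nevertheless had no block, and its values for both comparisons are unpaired. The replicate block was used only as an alternative.

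The members, the related lists and the tests were chosen with earlier results of these data known. Named were all members, every P-cell, cassette and CaaX gene, up to 4 genes per other list with the lowest p in R, and the 6 genes most like the members' median profile. Sequences and coordinates are from RefSeq (ASM294v3), matched by gene ID for 8 of 8 members. Reads carry no molecular identifiers here, so the floor of 3 counts covers counting error only.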

Additional observations from a re-analysis of the deposited data

How the results depend on the processing

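Of 960 values of the 8 genes under the 20 alternatives (6 comparisons), 907 kept their call, 36 lost it, 17 gained one and 0 called values reversed; 22 values without a call had the other sign. The 2760 values of the other named genes held 73 lost, 62 gained and 0 reversed. Leaving out 1 library gave, for the count of members called, a range of 0 to 3 in A, 3 to 5 in Q and 4 to 6 in R against WT, 0 to 1 in Q against A, 1 to 2 in Q against R and 1 to 5 in R against A. For all genes called it gave 2 to 628 in A (209 with all libraries), 841 to 2022 in Q (1731), 325 to 1435 in R (1218), 1 to 184 in Q against A (2), 51 to 462 in Q against R (183) and 51 to 333 in R against A (124). In A it was 4, 2 and 7 without WT library 1, 2 and 3 and 14 without the second A library. The loss of a single gene's call in A in those settings is therefore not particular to that gene. With only the compared groups in the fit, 4 members were called in A and 0 in Q against R, and 933 genes were called in A, 0 in Q against A and 42 in Q against R. DESeq2 called 1 member in Q against A, and 560 genes in A, 116 in Q against A, 345 in Q against R and 447 in R against A. With limma on FPKM, 1 gene was called in Q against A with either pseudocount. Without the second libraries of the mutants, 650 genes were called in A, 453 in Q against A, 882 in Q against R and 464 in R against A. With the replicate block 1 member was called in Q against R, where 207 of all genes were called in place of 183. The block called 464 genes in A, 96 in Q against A and 364 in R against A. Beside sxa2 in Q against R and mfm2 in R against A the block changed no other member's call in the paired comparisons. The cause of these changes was not tested. Depth limits mfm1 and mfm3 most, at 6 to 88 counts per library.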

Other observations

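fus1, a formin gene needed for cell fusion that pheromone signalling induces, was chosen after its values were seen. It had 28.5, 21 and 36.1 CPM in A, 16.3, 13.6 and 50.9 CPM in Q and 12.9, 14.2 and 26.7 CPM in R, against 34.4, 28.1 and 27.9 CPM in WT. The third library of each mutant was the highest of its group, A and Q overlapped with WT, and every R library was below every WT library. The log2 fold change was -0.04 in A (adjusted p = 0.966), -0.21 in Q (adjusted p = 0.729) and -0.65 in R (adjusted p = 0.276), with an SE of 0.43 in each, so no change was called. ste6, which encodes an activator of Ras1 and was also chosen after its values were seen, rose in Q (1.79, adjusted p = 0.0202) and R (1.59, adjusted p = 0.0416). It had 9.65, 31.4 and 49.4 CPM in Q and 13.1, 41 and 19.3 CPM in R, against 10.6, 8.55 and 6.34 CPM in WT. The first Q library thus lay within the WT range, and the second R library was far above the others. The ste6 calls were not followed under the alternatives.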
